A study of Mus musculus with 6 samples.

Results

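The genes described here are the ephrins and their Eph receptors, the semaphorins, the plexins and the neuropilins, cell-surface and secreted cues and receptors of axon guidance. Members were all probe sets with exactly 1 gene symbol of these families in the platform annotation, which gave 123 of 45101 probe sets, for 52 of 18193 named genes. Their RNA was measured on microarrays in cells sorted from the ventral mesencephalon of mouse embryos at day 12.5. The first group of 3 arrays held GFP-positive cells of Ngn2-GFP mice on a CD1/129 background, a reporter of the proneural gene Neurog2, labelled as midbrain dopaminergic progenitors. The second group of 3 arrays held GFP-negative cells of Lmx1a-GFP mice on a C57BL/6 background, a reporter of a transcription factor of dopaminergic progenitors, labelled as a non-dopaminergic reference. Both groups carried a GFP reporter and shared stage and region. Each group had its own strain, reporter line and gate, so the effects of these cannot be told apart. The design text calls the arrays biological replicates, and the sources used here do not say how many embryos went into each.

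Ephrins are membrane-bound ligands that signal to Eph receptor tyrosine kinases on neighbouring cells, and the ligand-bearing cell can itself receive a signal. Ephrin-A ligands are held by a lipid anchor and ephrin-B ligands span the membrane. Class 3 semaphorins are secreted and mostly act through a neuropilin, which binds the ligand, together with an A-type plexin, which carries the signal inward. Most other semaphorins are membrane proteins that bind plexins without a neuropilin. In the developing midbrain these families are known for steering growing axons, those of dopaminergic neurons among them, and for keeping cell groups apart.

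Values are MAS5 signals in arbitrary units, in which all arrays have a trimmed mean of 100. Differences are log2 fold changes, Ngn2-GFP-positive minus Lmx1a-GFP-negative, with the standard error (SE) or 95% interval of a limma fit over all 12044 tested genes and n = 3 arrays per group. A filter kept probe sets whose signal was above the 40th percentile on 3 or more arrays, and the brightest remaining probe set, by mean log2 signal, stood for the gene. That percentile lay at signals of 11.6 to 14.6 on the Ngn2-GFP-positive and 10.2 to 15.8 on the Lmx1a-GFP-negative arrays. Ngn2-GFP-positive replicates 1 and 2 stood apart from the other 4 arrays in added control RNA and in 18S ribosomal RNA. Their 18S probe sets averaged 3713 and 3696, against 8298 on Ngn2-GFP-positive replicate 3 and 7241 to 9276 on the Lmx1a-GFP-negative arrays. Their bacterial and phage spike-in probe sets averaged 2293 and 2352, against 5018 on Ngn2-GFP-positive replicate 3 and 4254 to 6560 on the Lmx1a-GFP-negative arrays. The main differences below are therefore also given with this split of the arrays as a block, called the block value. The split was read from these control signals and not from a recorded batch. The block value compares Ngn2-GFP-positive replicate 3 alone with the 3 Lmx1a-GFP-negative arrays, and assumes that this array varies like the others.

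Of the 52 guidance genes, 44 were tested and 1 differed between the populations. This was the co-receptor gene Nrp2, higher in Ngn2-GFP-positive cells. That is 2.27% of the tested guidance genes, against 1.06% of all 12044 tested genes, of which 0.423% passed the adjusted threshold of 0.05 as higher and 0.639% as lower. No guidance gene passed as lower by limma. At an unadjusted p under 0.05, 4 guidance genes were higher, when 5.68% of all genes were, and 2 were lower, when 5.08% of all genes were. These 6 are 13.6% of the tested guidance genes, against 10.8% of all tested genes. The median difference over the 44 genes was 0.078, against 0.025 over all tested genes, with 23 genes at positive and 21 at negative values. A difference of at least 2-fold was fitted for 4 of them, or 9.09%, against 7.43% of all tested genes, and 30 of the 44 differed by less than 1.5-fold. The 3 values of one group lay wholly outside those of the other for 9 guidance genes, or 20.5%, against 15.5% of all tested genes. Of these, 7, or 15.9%, were higher in Ngn2-GFP-positive cells (8.21% of all genes were), namely Nrp2, Efnb2, Plxnc1, Plxnb1, Sema6d, Sema3g and Epha10. The other 2, or 4.55%, Epha3 and Sema4a, were lower (7.25% of all genes were). The share of non-overlapping higher genes lay above that of all genes. All these shares rest on few genes and no set test was run, so they are no result about the guidance families as a whole. In a bulk measurement, fewer cells of a type and less RNA per cell cannot be told apart.

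**Figure D1:**
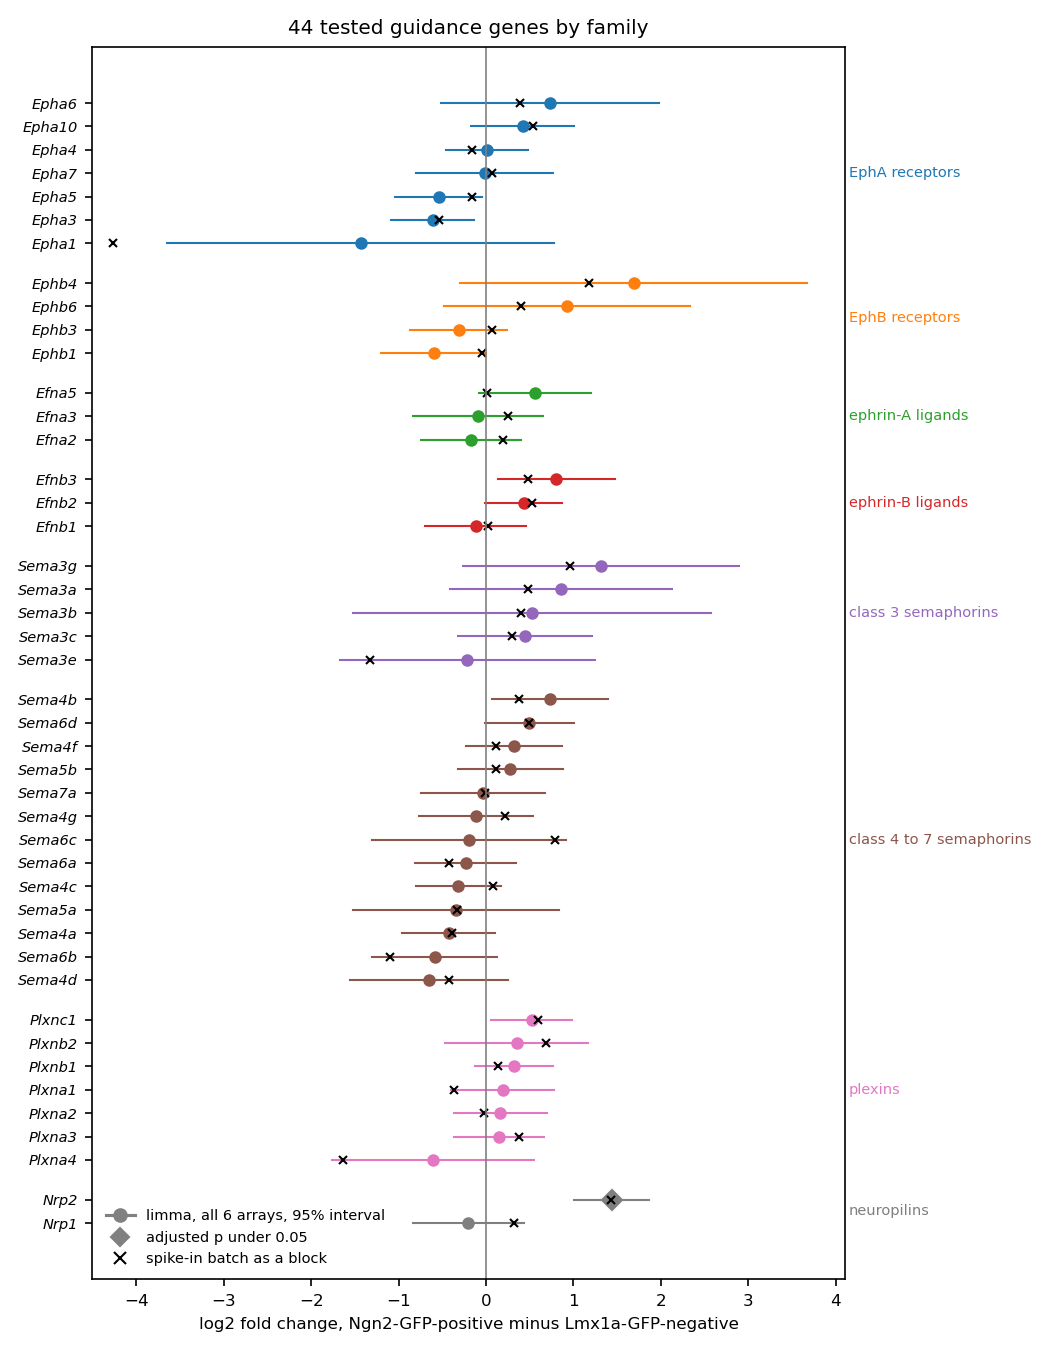
Log2 fold change, Ngn2-GFP-positive minus Lmx1a-GFP-negative, of each of the 44 tested guidance genes (circle) with its 95% interval (line, limma, n = 3 arrays per group), ordered within family; crosses give the value with the spike-in block. Nrp2 (diamond) is the 1 gene past the adjusted threshold, and most other intervals include 0.

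Neuropilins bind class 3 semaphorins at the cell surface, and the 2 family members prefer different ligands: Nrp2 is the main binding receptor for Sema3f and Nrp1 for Sema3a. Nrp2 (probe set 1435349_at) had signals of 588, 593 and 584 in Ngn2-GFP-positive cells, against 233, 187 and 235 in Lmx1a-GFP-negative cells. The 3 Ngn2-GFP-positive arrays were almost level and lay far above the highest Lmx1a-GFP-negative array. The difference was 1.44 (SE 0.20, 2.71-fold, adjusted p = 0.00321). It passed without any 1 array, at differences of 1.33 to 1.50 and adjusted p of 0.00534 to 0.0228. The block value was 1.43, of the same size, but its adjusted p from 1 Ngn2-GFP-positive array was 0.0755. Of the 3 other Nrp2 probe sets, 1426528_at read 459, 367 and 506 in Ngn2-GFP-positive cells, against 213, 207 and 247 in Lmx1a-GFP-negative cells. The groups did not overlap on it either (13.9% of all tested probe sets had such groups), at a difference of 0.99 (SE 0.22), with an adjusted p of 0.0801 in the limma fit over all 27738 tested probe sets. A dimmer one, 1456778_at, differed by 0.89 with overlapping groups, and 1447343_at did not reach the filter level on enough arrays. Probe sets of a gene share their arrays and are not independent replicates.

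Nrp1, on its probe set 1448943_at, had signals of 80.0, 69.4 and 128 in Ngn2-GFP-positive cells, against 105, 113 and 91.0 in Lmx1a-GFP-negative cells. The groups overlapped, with a difference of -0.20 (95% interval -0.84 to 0.43) and a block value of 0.31. Its 4 tested probe sets ran from -0.62 to 0.39. The upstream sequences of the 2 neuropilin genes are shown because Nrp2 is the gene that passed and Nrp1 its nearest relative with another outcome. They are the 250 bases before the transcript start that the RefSeq promoter table (GRCm38.p6) gives for each gene, 5′ to 3′ and in lower case throughout.
Nrp2, GRCm38.p6 chr1:62703067-62703316, + strand: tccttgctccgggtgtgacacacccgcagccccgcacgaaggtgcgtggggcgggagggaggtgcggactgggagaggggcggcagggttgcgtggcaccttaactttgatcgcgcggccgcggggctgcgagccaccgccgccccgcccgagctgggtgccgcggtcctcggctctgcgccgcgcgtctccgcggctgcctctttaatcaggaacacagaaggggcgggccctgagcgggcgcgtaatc
Nrp1, GRCm38.p6 chr8:128358823-128359072, + strand: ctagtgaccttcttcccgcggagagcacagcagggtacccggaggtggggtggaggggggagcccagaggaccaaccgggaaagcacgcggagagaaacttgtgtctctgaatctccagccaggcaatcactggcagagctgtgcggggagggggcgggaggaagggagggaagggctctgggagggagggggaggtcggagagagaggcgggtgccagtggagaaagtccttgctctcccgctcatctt
The E-box core CANNTG, which reads the same on both strands and is bound by factors of the Neurog2 kind, had 0 matches in either window, when 66.2% of all 32851 promoter windows of this length and 46.7% of the 60 windows of guidance genes held it. The homeobox core TAATTA, also the same on both strands, had 0 matches in either, when 4.84% of all windows and 3.33% of those of guidance genes held it. This says only that these letters are not in these windows.

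**Figure D2:**
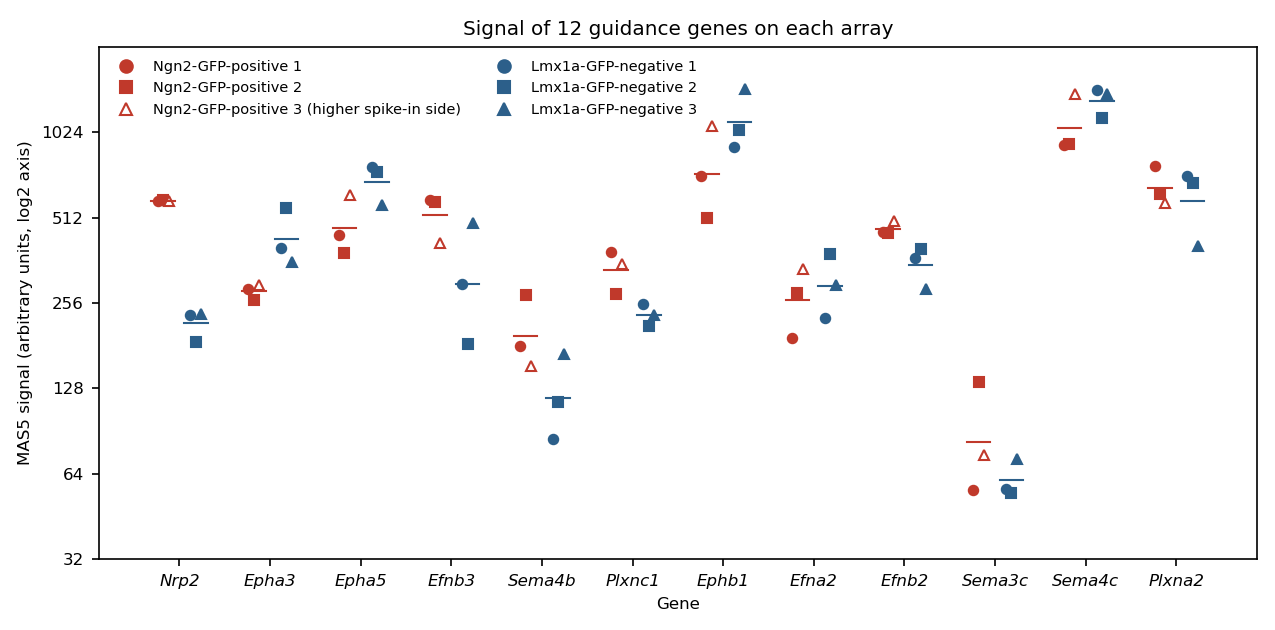
MAS5 signal (arbitrary units, log2 axis) of 12 guidance genes on each array, Ngn2-GFP-positive (red) left of Lmx1a-GFP-negative (blue) for each gene; circles, squares and triangles are replicates 1, 2 and 3, lines are geometric means, and the open triangle is the Ngn2-GFP-positive array on the higher spike-in side. Nrp2 groups are far apart, while for Epha5, Ephb1 and Sema4c the open triangle lies among or beside the Lmx1a-GFP-negative values.

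The secreted ligands of these receptors, the class 3 semaphorins, gave mostly dim probe sets. Of 7 genes 5 were tested, with 0 past the threshold by limma or at an unadjusted p under 0.05, 4 at positive values and a median of 0.53 (0.40 with the block). That median is the value of Sema3b, whose probe set exceeded the filter level on only 3 arrays. Sema3c, a ligand that can use either neuropilin, was the brightest, with signals of 56.3, 135 and 74.5 in Ngn2-GFP-positive cells, against 56.7, 54.8 and 72.2 in Lmx1a-GFP-negative cells. The groups overlapped, at 0.45 (95% interval -0.32 to 1.21, block value 0.29). Sema3g, a ligand of Nrp2, had 26.4, 23.3 and 17.3 in Ngn2-GFP-positive cells, against 13.2, 3.11 and 16.9 in Lmx1a-GFP-negative cells. These groups did not overlap, but the difference of 1.31 had an interval from -0.27 to 2.89, and 2 of the Lmx1a-GFP-negative values were under the filter level. Sema3a, the repellent that binds Nrp1, differed by 0.85 (95% interval -0.42 to 2.12) and exceeded the filter level on only 1 Lmx1a-GFP-negative array. Sema3b differed by 0.53 (95% interval -1.52 to 2.57), and Sema3e, which signals through plexin-D1, by -0.22. Sema3f, the repellent that binds Nrp2, was not tested: its 3 probe sets peaked at 21.9 on Ngn2-GFP-positive and 31.5 on Lmx1a-GFP-negative arrays and exceeded the filter level on at most 2 arrays. Sema3d, the other untested gene, peaked at 2.57 on Ngn2-GFP-positive and 8.76 on Lmx1a-GFP-negative arrays.

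Plexins carry the semaphorin signal into the cell. Of 9 plexin genes 7 were tested, with 0 past the threshold by limma, 1 at an unadjusted p under 0.05 (Plxnc1), 6 at positive values and a median of 0.19 (0.14 with the block). Plxnc1, the receptor of Sema7a, had signals of 387, 276 and 350 in Ngn2-GFP-positive cells, against 255, 212 and 233 in Lmx1a-GFP-negative cells. The groups did not overlap. The difference was 0.52 (SE 0.21, 1.44-fold, adjusted p = 0.393 by limma), with a block value of 0.59. Its 4 other tested probe sets ran from -0.19 to 0.72, so they did not all share this direction. Plxnb1, a receptor of Sema4d, had 460, 520 and 404 in Ngn2-GFP-positive cells, against 313, 396 and 402 in Lmx1a-GFP-negative cells. Its closest values across groups were nearly equal, and it differed by 0.32 (95% interval -0.13 to 0.77, block value 0.14). Plxna2, a receptor of class 6 semaphorins and a partner of neuropilins, had 778, 623 and 575 in Ngn2-GFP-positive cells, against 720, 679 and 408 in Lmx1a-GFP-negative cells. The groups overlapped at 0.16 (95% interval -0.37 to 0.69), and the block value was -0.024. The other A-type plexins differed by 0.19 for Plxna1, 0.15 for Plxna3 and -0.60 for Plxna4. Plxna4 had 43.0, 23.0 and 10.8 in Ngn2-GFP-positive cells, against 38.6, 26.1 and 37.2 in Lmx1a-GFP-negative cells, and its lowest value was that of Ngn2-GFP-positive replicate 3. Its block value was -1.63 (adjusted p = 0.631). Plxnb2, a receptor of Sema4c, differed by 0.35 (95% interval -0.47 to 1.17). Plxnb3 and Plxnd1, the Sema3e receptor that is prominent in blood vessels, were too dim to test. Endothelial cells were not visible on these arrays: 7 of 8 endothelial marker genes, Pecam1 and Cdh5 among them, were under the filter level on every array and the eighth, Flt1, was not tested either.

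The membrane-bound and other semaphorins of classes 4 to 7 had 13 genes on the array, all tested, with 0 past the threshold by limma, 1 at an unadjusted p under 0.05 (Sema4b), 4 at positive and 9 at negative values and a median of -0.19 (0.076 with the block). Sema4b, a class 4 transmembrane semaphorin, had 181, 274 and 153 in Ngn2-GFP-positive cells, against 84.8, 115 and 169 in Lmx1a-GFP-negative cells. The groups overlapped on this probe set, at 0.73 (SE 0.30, adjusted p = 0.402 by limma, block value 0.37). On the second Sema4b probe set, 1427586_at, they did not, with 278, 254 and 146 in Ngn2-GFP-positive cells, against 144, 74.5 and 70.8 in Lmx1a-GFP-negative cells. There the difference was 1.26 (SE 0.34, adjusted p = 0.189 over all tested probe sets), and the block value was 0.68. On that probe set, Ngn2-GFP-positive replicate 3 lay far below the other Ngn2-GFP-positive arrays.

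Sema6d, a ligand of plexin-A1, had 134, 171 and 152 in Ngn2-GFP-positive cells, against 112, 111 and 99.3 in Lmx1a-GFP-negative cells. Its groups did not overlap, at 0.49 (95% interval -0.017 to 1.01) and the same block value of 0.49. Sema4a had 100.1, 89.9 and 99.2 in Ngn2-GFP-positive cells, against 111, 144 and 136 in Lmx1a-GFP-negative cells. It was the 1 gene of these classes with all Ngn2-GFP-positive values below all Lmx1a-GFP-negative ones, at -0.43 (95% interval -0.96 to 0.10, block value -0.39). Sema4c, which binds plexin-B2, had 924, 933 and 1395 in Ngn2-GFP-positive cells, against 1443, 1148 and 1400 in Lmx1a-GFP-negative cells. Only Ngn2-GFP-positive replicate 3 fell within the range of the Lmx1a-GFP-negative arrays, and the difference of -0.32 (95% interval -0.80 to 0.17) had a block value of 0.076. Sema6b had 81.6, 67.7 and 44.0 in Ngn2-GFP-positive cells, against 99.7, 69.7 and 119 in Lmx1a-GFP-negative cells, at -0.59 (95% interval -1.30 to 0.13, block value -1.09, adjusted p = 0.632 with the block). Sema4d, the plexin-B1 ligand, differed by -0.65 (95% interval -1.55 to 0.25). Sema5b, a transmembrane semaphorin with thrombospondin repeats, differed by 0.28 and its relative Sema5a by -0.34, both with intervals that included 0. Sema7a, the lipid-anchored ligand of Plxnc1, differed by -0.037 (95% interval -0.75 to 0.67). The remaining members, Sema4f, Sema4g, Sema6a and Sema6c, lay between -0.23 and 0.32.

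Ephrins of the B family span the membrane and bind mainly EphB receptors. All 3 ephrin-B genes were tested, with 0 past the threshold by limma, 1 at an unadjusted p under 0.05 (Efnb3) and a median of 0.43 (0.47 with the block). Efnb2, a transmembrane ephrin that also marks arterial endothelium, had 454, 452 and 500 in Ngn2-GFP-positive cells, against 369, 396 and 287 in Lmx1a-GFP-negative cells. The groups did not overlap. The difference was 0.43 (SE 0.20, 1.35-fold, adjusted p = 0.477 by limma), and the block value was 0.52. All 4 of its probe sets read higher in Ngn2-GFP-positive cells, at 0.38 to 0.62, and groups stayed apart on 3 of them. The overlapping one, 1449549_at, was the dimmest of the 4. Efnb3, an ephrin known for its place at the spinal cord midline, had 593, 580 and 415 in Ngn2-GFP-positive cells, against 299, 183 and 489 in Lmx1a-GFP-negative cells. Lmx1a-GFP-negative replicate 3 lay above the lowest Ngn2-GFP-positive array. The difference of 0.81 (SE 0.31, adjusted p = 0.357 by limma) had a block value of 0.47, and without Lmx1a-GFP-negative replicate 2 it was 0.45. Efnb1 differed by -0.12 (95% interval -0.70 to 0.46), and its 3 probe sets ran from -1.32 to 0.54.

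Of 5 ephrin-A genes 3 were tested, with 0 past the threshold by limma or at an unadjusted p under 0.05 and a median of -0.091 (0.20 with the block). Efna5, a ligand of EphA receptors known from topographic mapping in the visual midbrain, had 261, 203 and 130 in Ngn2-GFP-positive cells, against 170, 122 and 104 in Lmx1a-GFP-negative cells. The excess sat in Ngn2-GFP-positive replicates 1 and 2: the difference was 0.56 (95% interval -0.083 to 1.20) and the block value 0.011. Efna2, which shares that mapping role, had 192, 277 and 338 in Ngn2-GFP-positive cells, against 226, 381 and 297 in Lmx1a-GFP-negative cells. Its groups overlapped, at -0.17 (95% interval -0.74 to 0.41), and its block value was 0.20. Efna3 differed by -0.091 (95% interval -0.84 to 0.65). Efna1 and Efna4 stayed under the filter on all 6 arrays.

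EphA receptors bind mainly ephrin-A ligands, and 7 of 9 genes were tested, with 0 past the threshold by limma, 2 at an unadjusted p under 0.05 (Epha3 and Epha5), 3 at positive and 4 at negative values and a median of -0.017 (-0.16 with the block). Epha3, a receptor of ephrin-A5, had 287, 262 and 296 in Ngn2-GFP-positive cells, against 401, 555 and 357 in Lmx1a-GFP-negative cells. All Ngn2-GFP-positive values lay below all Lmx1a-GFP-negative ones. The difference was -0.61 (SE 0.22, 1.53-fold, adjusted p = 0.319 by limma), with a block value of -0.54. Its 4 probe sets all read lower in Ngn2-GFP-positive cells, from -0.87 to -0.46, and 3 of them had groups that did not overlap. On the probe set with the largest of these, 1425575_at, signals were 188, 124 and 162 in Ngn2-GFP-positive cells, against 270, 354 and 241 in Lmx1a-GFP-negative cells (adjusted p = 0.242 over all tested probe sets).

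Epha5, another ephrin-A receptor, had 443, 384 and 616 in Ngn2-GFP-positive cells, against 772, 739 and 568 in Lmx1a-GFP-negative cells. Ngn2-GFP-positive replicate 3 exceeded the lowest Lmx1a-GFP-negative array. The difference of -0.54 (SE 0.23, adjusted p = 0.409 by limma) shrank to a block value of -0.16. Its 3 other probe sets ran from -0.31 to -0.22, with block values of -0.59 for 1435286_at, -0.47 for 1444690_at and -0.15 for 1437920_at. The first 2 of these are larger in size than without the block. Epha4, which binds ephrins of both classes, was level on its brightest probe set, at 230, 185 and 173 in Ngn2-GFP-positive cells, against 188, 202 and 188 in Lmx1a-GFP-negative cells. That difference was 0.011 (95% interval -0.46 to 0.48), while its 3 other tested probe sets ran from 0.52 to 0.79. Epha7 was at -0.017 on its brightest probe set and at 0.34 to 0.76 on the 3 others. Epha10, whose kinase domain is thought to be inactive, had 82.1, 101 and 102 in Ngn2-GFP-positive cells, against 62.9, 79.8 and 70.4 in Lmx1a-GFP-negative cells. Its groups did not overlap, at 0.42 (95% interval -0.17 to 1.01, block value 0.53). Epha6 had 28.7, 35.0 and 22.2 in Ngn2-GFP-positive cells, against 15.5, 35.8 and 8.84 in Lmx1a-GFP-negative cells. It differed by 0.73 (95% interval -0.52 to 1.97) and exceeded the filter level on only 1 Lmx1a-GFP-negative array. Epha1 differed by -1.43 (95% interval -3.65 to 0.78), with 1 array far below the others: it had 27.7, 14.8 and 1.07 in Ngn2-GFP-positive cells, against 17.7, 26.1 and 18.7 in Lmx1a-GFP-negative cells, and its other 2 probe sets were under the filter. Its block value, which sets the array at 1.07 against the Lmx1a-GFP-negative arrays, was -4.27 (adjusted p = 0.155). Epha2 and Epha8 exceeded the filter level on 1 array each and were not tested.

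EphB receptors bind ephrin-B ligands. The 4 genes with a member probe set were all tested, and Ephb2 was not among the members. By limma, 0 were past the threshold or at an unadjusted p under 0.05. Ephb1 and Ephb3 were at negative values, and the dimmer Ephb4 and Ephb6 at positive ones. The median of 0.31 (0.24 with the block) lies between these 2 pairs and is no shift of the family. Ephb1, known for routing retinal axons at the optic chiasm, had 717, 511 and 1076 in Ngn2-GFP-positive cells, against 906, 1040 and 1456 in Lmx1a-GFP-negative cells. Ngn2-GFP-positive replicates 1 and 2 lay below every Lmx1a-GFP-negative array and replicate 3 among them. The difference was -0.60 (95% interval -1.20 to 0.0019), the block value was -0.047, and without Ngn2-GFP-positive replicate 3 it was -0.88 (adjusted p = 0.073 by limma). Ephb3 likewise had Ngn2-GFP-positive replicates 1 and 2 below every Lmx1a-GFP-negative array and replicate 3 among them, with 107, 129 and 175 in Ngn2-GFP-positive cells, against 159, 148 and 195 in Lmx1a-GFP-negative cells, at -0.31 (95% interval -0.87 to 0.24) and a block value of 0.071. Ephb4, a receptor of ephrin-B2 that marks venous endothelium, and the kinase-inactive Ephb6 were near the filter level, at 1.69 (95% interval -0.29 to 3.68) and 0.93 (95% interval -0.48 to 2.34).

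The direction of some guidance genes depended on which Ngn2-GFP-positive arrays were read. With the block, 32 of the 44 genes kept the sign of their difference, against 8660 of all 12044 genes. No guidance gene passed the adjusted threshold with the block by limma, when 0.282% of all genes did, and 1 was higher and 3 were lower at an unadjusted p under 0.05. These 4, Nrp2, Epha1, Sema6b and Plxna4, are 9.09% of the tested guidance genes, against 6.43% of all tested genes. Probe sets of a gene also disagreed at times. Of 28 guidance genes with more than 1 tested probe set, 19 had a single sign on all of them, and 11 of 49 further probe sets had the sign opposite to the brightest one. A second probe set read far from the brightest one for Plxna1 (2.005), Sema7a (-1.61) and Sema3e (1.10), none past the threshold. The single-sign genes included Nrp2, Efnb2, Epha3, Epha5, Sema4b and Plxnb1. In the limma fit of every probe set, 1 of the 93 tested guidance probe sets passed, the brightest one of Nrp2, when 0.537% of all probe sets did.

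**Figure D3:**
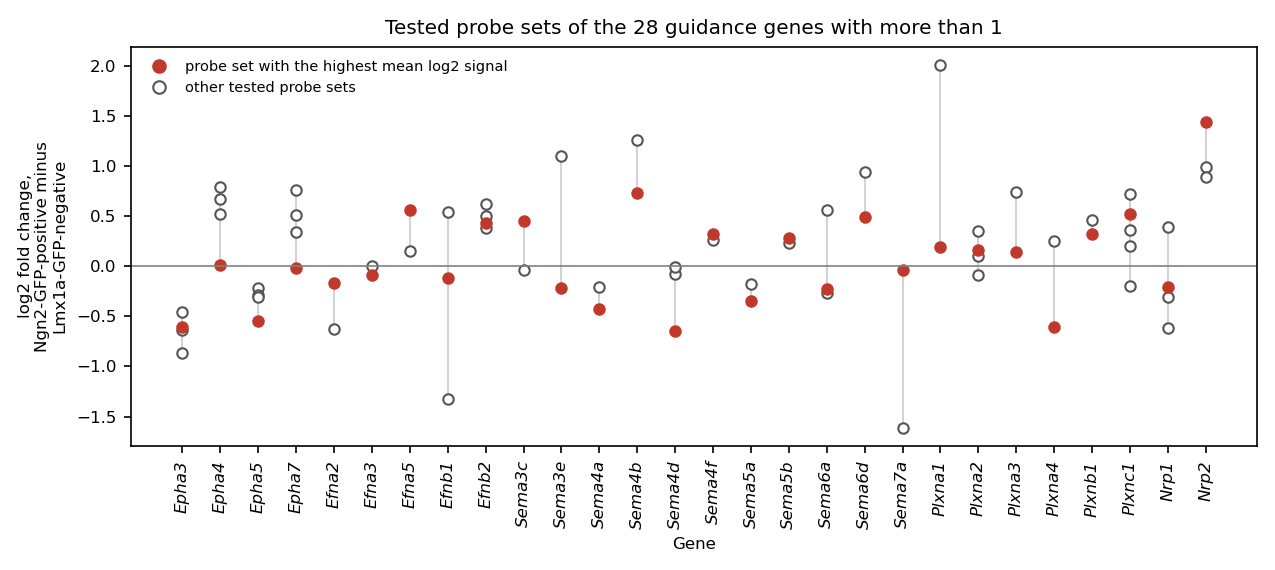
Log2 fold change, Ngn2-GFP-positive minus Lmx1a-GFP-negative, of each tested probe set (point) of the 28 guidance genes with more than 1; filled points are the probe sets with the highest mean log2 signal, which stand for the gene. All points of Nrp2 and Efnb2 lie above 0 and all points of Epha3 below it, while those of Efnb1, Nrp1 and Plxnc1 lie on both sides.

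Signalling partners and co-receptors of these families were read from 2 lists. Of 32 Eph and ephrin effectors 27 were tested, with 0 past the threshold in either direction by limma, when 1.06% of all tested genes were. Their median was 0.052, against 0.025 over all tested genes. At an unadjusted p under 0.05, 3 were higher, when 5.68% of all genes were, and 1 was lower, when 5.08% of all genes were. Those were Chn2, a Rac GTPase-activating protein (2.01-fold, adjusted p = 0.275), Grip1, a scaffold that binds ephrin-B ligands (0.85, SE 0.24, adjusted p = 0.182), Itsn1, an exchange factor for Cdc42 (0.82, SE 0.37, adjusted p = 0.462), and Adam10, a protease that cuts ephrins (-0.63, SE 0.24, adjusted p = 0.354). Block values were 0.41 for Chn2, 0.43 for Grip1, -0.25 for Itsn1 and -0.11 for Adam10. The 2 brightest of the list were Sdcbp, which binds ephrin-B tails, at -0.26 and the GTPase Rhoa at -0.32. Of 35 semaphorin and plexin effectors and co-receptors 29 were tested, with 0 past the threshold by limma and a median of -0.14. At an unadjusted p under 0.05, 1 was higher and 1 lower, beside the same shares of all genes. Counts this small are no result about either list. The adhesion molecule Cntn2 was at 0.58 (SE 0.26, adjusted p = 0.453) and the actin-severing protein Cfl1, among the 2 brightest, at -0.74 (SE 0.33, adjusted p = 0.453). The other brightest member, the adhesion molecule Chl1, was at -0.26. Block values were 0.18 for Cntn2 and 0.14 for Cfl1, whose sign thus turned.

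Markers of the sorted cells were read beside these values. Of 8 dopaminergic markers 5 were higher and 0 lower in Ngn2-GFP-positive cells, and their summed signal was 3907 to 5442 on Ngn2-GFP-positive and 1592 to 1906 on Lmx1a-GFP-negative arrays. Lmx1a is among these 5, and its reporter set the sort gate of the Lmx1a-GFP-negative cells, so its difference is not independent of the sort. With the spike-in block, which rests on 1 Ngn2-GFP-positive array, Nr4a2 passed (2.35, adjusted p = 0.0139) and the other 4, Th, Slc6a3, Slc18a2 and Lmx1a, did not (adjusted p = 0.104 to 0.176). The summed signal was higher in the same group as Nrp2. The part of these markers in the Nrp2 difference was not tested. Of 7 midbrain GABAergic markers 5 were lower, with summed signals of 2442 to 2666 on Ngn2-GFP-positive and 5739 to 6023 on Lmx1a-GFP-negative arrays. With the block 3 of these passed, and Tal1 (adjusted p = 0.359) and Gad1 (adjusted p = 0.224) did not. Blood cell genes moved the same way. All 5 tested erythroid markers were lower, at sums of 313 to 622 on Ngn2-GFP-positive and 7510 to 14939 on Lmx1a-GFP-negative arrays. With the block 4 passed and Alas2 did not (-2.33 with the block, against -4.92, adjusted p = 0.623 with the block). Of 5 tested macrophage and microglia markers 4 were lower, at sums of 26.4 to 51.8 on Ngn2-GFP-positive and 373 to 798 on Lmx1a-GFP-negative arrays. With the block 2 of these passed, and Aif1 (adjusted p = 0.224) and C1qb (adjusted p = 0.052) did not. Of 8 radial glia markers 2 were lower, at sums of 4255 to 6646 on Ngn2-GFP-positive and 7934 to 9526 on Lmx1a-GFP-negative arrays, and of 4 tested motor and serotonergic markers 2 were, at sums of 34.5 to 65.0 on Ngn2-GFP-positive and 272 to 335 on Lmx1a-GFP-negative arrays. With the block Pax6 passed among the radial glia markers and Fabp7 did not (-0.62, adjusted p = 0.374), and 0 motor and serotonergic markers passed, with Isl1 at -1.57 (adjusted p = 0.304) and Slc6a4 at -2.73 (adjusted p = 0.155). Of 6 general neuronal and 4 tested pericyte and mesenchyme markers 0 passed by limma, and at an unadjusted p under 0.05 these were 1 and 0. Neuronal sums were 9527 to 14526 on Ngn2-GFP-positive and 12492 to 16257 on Lmx1a-GFP-negative arrays. The GABAergic, blood cell, radial glia, motor and serotonergic markers that passed as lower shared that direction with guidance genes such as Epha3 and Sema4a. Of the 44 tested guidance genes 21 were at negative and 23 at positive values, so a shared direction says little. Neither Epha3 nor Sema4a passed (adjusted p = 0.319 and 0.549 by limma), and the part of the markers was not tested.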

How the data were processed

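RNA of sorted cells was hybridised to 6 Affymetrix arrays, 1 per sample. The authors deposited 1 intensity per probe set and array on a linear scale. Per the submitters' processing notes, MAS5 and R 2.14.2 were used, and limma is named with no role. MAS5 scales each array, so total RNA content is not compared. Of 45037 non-control probe sets, 34945 listed 1 gene symbol, 932 several and 9160 none. Here, signals below 1 were raised to 1 before log2, without rescaling. limma 3.58.1 in R 4.3.3 (lmFit, then eBayes with trend) compared the groups on 4 residual degrees of freedom, two-sided. P-values were adjusted by Benjamini-Hochberg over all 12044 tested genes, threshold 0.05. The same steps were tested on simulated data. The number of arrays limits precision. The members and lists were chosen with earlier results of these data known. Genes described singly were those past the threshold, those at an unadjusted p under 0.05 and the brightest of each of 8 families, with others added to complete families. Deviations of same-numbered replicates from their group means correlated at 0.139, -0.0964 and 0.0318. With 3 arrays per group these values cannot decide whether the numbers pair the samples, and the main fit treated them as unpaired. Alternatives varied normalization, filter, floor, variance trend, probe set choice and block, and left out each array. The RefSeq promoter table held 46 of the guidance genes. Figures used matplotlib 3.10.9 in Python 3.11.15. Array slides and scan times were not used here.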

Additional observations from a re-analysis of the deposited data

How the results depend on the processing

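The count of 1 guidance gene higher in Ngn2-GFP-positive cells, Nrp2, was 1 under quantile normalization, median centring, no filter, the 60th percentile filter, log2 of the value plus 32, the mean of probe sets, the fit without probe sets that may match several transcripts, and the fit of every probe set. It was also 1 without each array in turn. It was 0 without the variance trend (Nrp2 at 1.44, adjusted p = 0.0637), under the spike-in block (1.43, adjusted p = 0.0755) and on the 4 arrays of the higher spike-in side alone (1.43, adjusted p = 0.235), where 1 Ngn2-GFP-positive array remains. The count of lower guidance genes was 0 under all of these settings by limma, with 0 to 4 at an unadjusted p under 0.05. With the replicate block the counts were 1 and 0 and Nrp2 was at 1.44 (adjusted p = 0.0051), and no other named gene changed its call. Over all genes, 34 passed with the spike-in block, 38 on its higher side alone, 42 without the trend and 19 without the filter, against 128. Without Ngn2-GFP-positive replicate 3, when the lower spike-in side is the whole Ngn2-GFP-positive group, 419 passed, and without each other array 58 to 85. Uncalled genes near 0 changed sign: Efna2 to 0.20, Sema4c to 0.076 and Plxna2 to -0.024 with the spike-in block and on its higher side alone, Efna2 to 0.054 without Ngn2-GFP-positive replicate 1 and 0.016 without Lmx1a-GFP-negative replicate 2, and Plxna2 to -0.10 without Lmx1a-GFP-negative replicate 3. Without 1 array, Efna2 ran from -0.36 to 0.054 and Plxna2 from -0.10 to 0.31. The causes of these changes were not tested. Signals near the filter level are noisy on a log scale and limit what can be said of such genes. Examples are Sema3a, Sema3b, Sema3g, Ephb4, Ephb6, Epha1 and Epha6.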
